A study of Caenorhabditis elegans with 2 samples.

Results

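The regions described here are the X-linked binding peaks of JUN-1 that lie away from the promoters of protein-coding genes. They are the rows of the authors' IDR list (irreproducible discovery rate, a filter on how alike replicates rank regions) on build ce11 that are on chromosome X and whose summit is in no promoter window. That window reached 1000 bp before and 500 bp past the 5′ end of every protein-coding transcript. This rule gave 291 of the 2738 IDR peaks, called X non-promoter peaks below, and left 283 X-linked peaks in promoters and 866 autosomal peaks outside them. Peaks were mapped by ChIP-seq of eGFP-tagged JUN-1 in whole L3 larvae of strain OP234, which carries unc-119(ed3) on chromosome III and the integrated transgene wgIs234. The larvae were pooled males and females of unstated age, so the cells and the sex a peak comes from cannot be told apart. The labels give 1 group of 2 biological replicates and no second condition, and control libraries were not analysed here, so no test between conditions was possible and all comparisons below are descriptions of sets of regions.

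JUN-1 is the worm relative of mammalian c-Jun, a bZIP protein that classically pairs with a FOS protein on the AP-1 site. The X chromosome of C. elegans is also the target of dosage compensation. In XX animals a condensin-like complex is recruited to a set of X-linked recruitment elements, many of which hold a short motif enriched on X (MEX), and it then lowers transcription along the chromosome. The gene xol-1 is the male-promoting switch that keeps this complex from assembling, and sdc-2 encodes the XX-specific protein that brings it to X.

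The sequences below are shown because 6 of the 15 strongest X non-promoter peaks have the MEX core close to the summit. The core searched was GCGCAGGG on either strand. Each stretch is a summit with 50 bp on each side, read from the RefSeq genome of WBcel235, which has the coordinates of ce11, on the strand that puts a copy of the core in this direction. Capitals mark each copy of the core on either strand. Peaks are numbered by signal value among the 291, from 1 for the strongest.
Peak 2, nearest 5′ end W02H3.3 (chrX:11094159-11094259, minus strand): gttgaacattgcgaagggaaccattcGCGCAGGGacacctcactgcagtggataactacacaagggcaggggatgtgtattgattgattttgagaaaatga
Peak 3, in an intron of mom-1 (chrX:6296535-6296635, plus strand): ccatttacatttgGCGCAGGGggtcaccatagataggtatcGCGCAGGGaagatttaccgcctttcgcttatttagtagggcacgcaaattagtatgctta
Peak 5, nearest F20B6.9 (chrX:4209224-4209324, minus strand): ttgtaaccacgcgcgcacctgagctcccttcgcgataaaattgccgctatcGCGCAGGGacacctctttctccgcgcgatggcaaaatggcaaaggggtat
Peak 6, in an intron of Y41G9A.17 (chrX:2997075-2997175, minus strand): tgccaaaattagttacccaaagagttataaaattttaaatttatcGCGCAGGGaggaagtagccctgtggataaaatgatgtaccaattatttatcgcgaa
Peak 11, nearest gtr-1 (chrX:806628-806728, plus strand): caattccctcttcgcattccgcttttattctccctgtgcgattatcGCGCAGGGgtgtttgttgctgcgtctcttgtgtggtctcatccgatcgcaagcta
Peak 13, upstream of xol-1 (chrX:8036383-8036483, minus strand): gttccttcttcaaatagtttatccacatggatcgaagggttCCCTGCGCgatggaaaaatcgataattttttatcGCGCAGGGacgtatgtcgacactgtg
Peaks 3 and 13 each have 2 copies in the window. In peak 3 both copies read in one direction, and in peak 13 they read in opposite directions. All 6 peaks were among the 15 X non-promoter peaks with a signal value over 200.

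Signal values, a score that the authors gave each peak on a scale not stated in the sources used here, set a few X non-promoter peaks far above the rest. Their median signal value was 49.1, with quartiles at 38.1 and 74.0, beside a median of 47.7 over all IDR peaks, 47.8 for X promoter peaks and 47.6 for autosomal peaks outside promoters. The upper quartile of 74.0 stood above those of the same sets, at 65.5, 66.5 and 63.2, and the lower quartiles were 37.6 to 38.6 in all 4 sets, so the medians and lower quartiles were close and the sets parted above the median. Of the 291 peaks, 15 (5.15%) had a value over 200, against 43 of 2738 IDR peaks (1.57%), 7 of 283 X promoter peaks and 5 of 866 autosomal peaks outside promoters. X non-promoter peaks made up 10.6% of the IDR list, 22 of its 100 strongest peaks (22.0%, exact Clopper-Pearson 95% interval 14.3 to 31.4%) and 8 of its 10 strongest. The value 200 was chosen after the values were seen, and lies between peak 15 (219) and peak 16 (180). Intervals here and below cover counting error of regions only, and the read depth behind each peak is unknown.

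**Figure D1:**
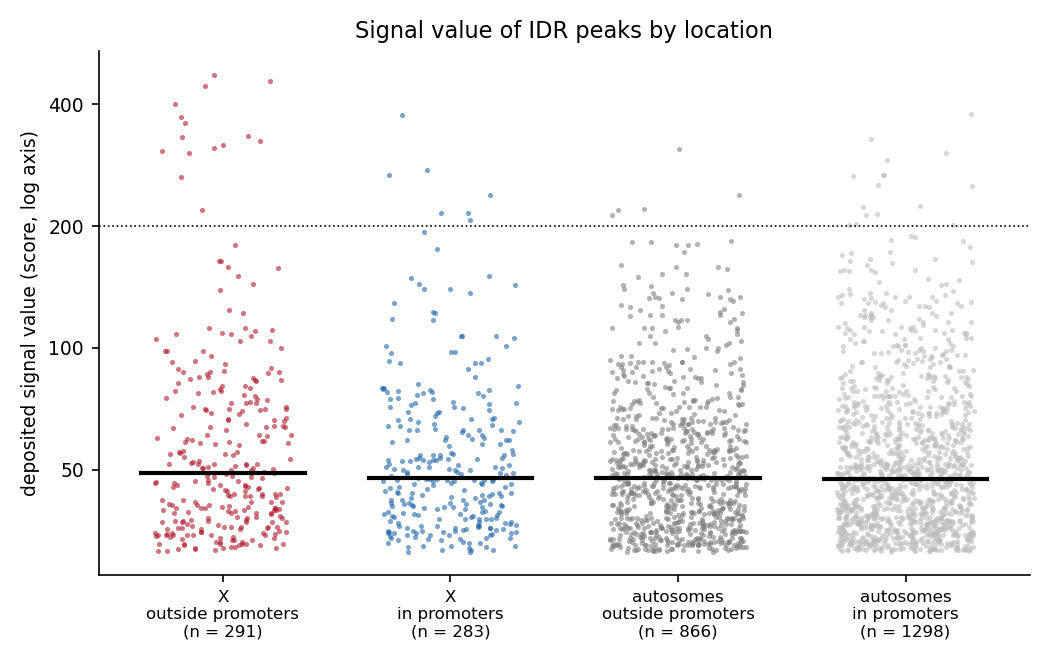
Deposited signal value (log axis) of each IDR peak by location, 1 point per peak, with the median as a bar and a dotted line at 200. The medians of the 4 sets are close together, while 15 of 291 X peaks outside promoters are above 200.

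Peak 1 (chrX:13700644-13701033 in ce11), intergenic and 6065 bp upstream of K02D3.1, had a signal value of 474 in the pooled call, 202 in replicate 1 and 278 in replicate 2. Peak 2 had 456, 202 and 259, peak 3 had 444, 206 and 239, and peak 5 had 373, 170 and 205 in the same order. Peak 3 lies in an intron of mom-1, a Porcupine-type gene needed for Wnt secretion. Peak 6 had 359 in the pooled call, with 109 in replicate 1 and 251 in replicate 2, the widest difference between replicates among the 15. Peak 12, in a coding exon of the polyketide synthase gene pks-1, had 306, 130 and 177. Peak 13 had 304, 124 and 181, with its summit 4880 bp upstream of xol-1. Peak 15, the weakest of the 15, had 219, 85.5 and 138 and lay 4168 bp downstream of the 5′ end of F43E12.1. The other 7, peaks 4, 7 to 11 and 14, had pooled values of 264 to 401, with 127 to 155 in replicate 1 and 133 to 246 in replicate 2. Their nearest coding 5′ ends, at 1046 to 5839 bp, were those of gtr-1, C30E1.4, F55G7.5, F19H6.5, T27A8.7, ZK899.6 and F22H10.2. Each of the 15 was higher in the list of replicate 2 than in that of replicate 1, by a ratio of 1.04 to 2.30 (median 1.38), and over all IDR peaks the median ratio was 1.40.

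Both replicates ranked these peaks near the top. The 15 held ranks 1 to 46 among the regions of the replicate 1 list and ranks 1 to 30 among those of replicate 2. Of all 291 peaks, 288 (99.0%) had a summit within 200 bp in both replicate lists, from which the IDR list was derived. Over all IDR peaks this share was 98.7%. A harder measure is whether the nearest summit was among the 2738 strongest regions of each replicate list, which held for 189 of 291 (64.9%, 95% interval 59.2 to 70.4%). The same share over all IDR peaks was 64.9%. It was 72 of 73 in the strongest quartile of X non-promoter peaks by signal value (74.5 and above), 69 of 73 in the next, 38 of 72 in the third and 10 of 73 in the weakest. The exception in the first quartile was peak 69, nearest M02F4.2, with a signal value of 76.6 in the pooled call but 6.44 in replicate 1 (rank 10576) against 49.7 in replicate 2 (rank 411). Over the 288 matched peaks Spearman's rho between replicates was 0.545, and 0.479 over all matched IDR peaks. This is a description, since peaks share 2 libraries and were selected on their pooled value.

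**Figure D2:**
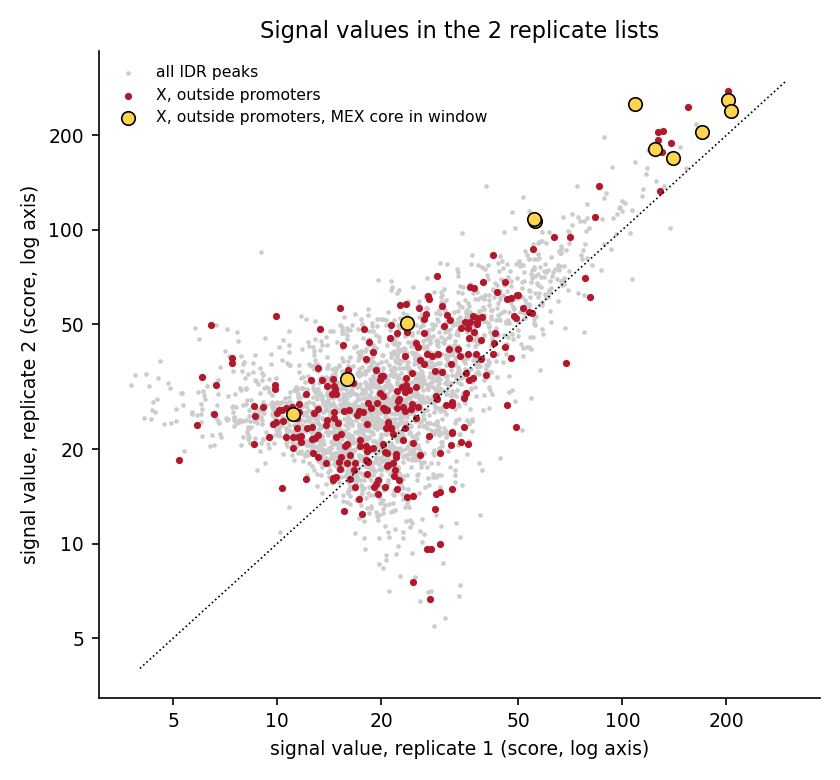
Signal value in replicate 1 (x, log axis) against replicate 2 (y, log axis), for all IDR peaks (grey), X peaks outside promoters (red) and those with the MEX core in the window (yellow), with a dotted line at equal values. The 15 peaks over 200 in the pooled call are at the upper right among few other IDR peaks, with 85.5 to 206 in replicate 1 and 133 to 278 in replicate 2, and 6 of them hold the MEX core in the window.

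The MEX core was rare along X and was present at several of the strongest X non-promoter peaks. Of the 15 peaks over 200, 6 had a copy at most 50 bp from the summit (95% interval 16.3 to 67.7%), as had 5 of the other 276 (1.81%, 0.591 to 4.18%). Among the other 28 IDR peaks over 200, 2 had one (7.14%, 0.877 to 23.5%), and the intervals of these strong sets overlap. Those 28 were not matched in height to the 15, since 14 of the 25 strongest IDR peaks were X non-promoter peaks. Over all 291 peaks the share was 11 (3.78%, 1.90 to 6.66%), beside 0.584% of all IDR peaks, 3 of 283 X promoter peaks (1.06%), 1 of 866 autosomal peaks outside promoters (0.115%) and 6 of 2277 lower-ranked X regions outside promoters (0.264%). Lower-ranked regions are those of the authors' pooled list that overlap no IDR peak. Tiles of that length along the whole of X held it in 0.0388%, and windows 500 bp to either side of the same 291 summits in 1 each. The 11 peaks with the core had a median signal value of 304 and the 280 without it 48.3. Copies lay at a median of 21 bp and at most 33 bp from the summit.

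Not every strong peak held it. In their whole deposited regions 9 of the 15 had at least 1 copy, including peaks 7, 10 and 12, which had none within 50 bp. Of the 7 X promoter peaks over 200, 2 had a copy in their regions. Peak 1, the strongest, had no copy in its region, and the closest match in its window differed from the core at 3 of its letters. With 1 mismatch allowed, 11 of the 15 windows matched (73.3%), against 5.77% of all IDR windows and 1.30% of every twentieth tile of X. Most IDR peaks are of lower signal value, and this form was not counted in the other 28 IDR peaks over 200. The shorter core CGCAGGG, which lies within the longer one, was in 13 of 291 windows (4.47%), 1.28% of all IDR windows and 0.156% of X tiles. The weaker peaks with the full core were peaks 17 (164 pooled, 56.0 and 107), near the collagen gene col-185, 18 (164, 55.6 and 108), 72 (74.9, 23.7 and 50.3), 156 and 236. Peak 156 is 563 bp from peak 5, and peak 236 is a second summit in the same deposited region as peak 6. The 291 rows covered 289 distinct regions, since peaks 13 and 106 (60.6, 22.3 and 46.9) share a region as well. Counting partial overlaps, 11 of the 291 overlapped another IDR peak, 3 of them among the 15, so these peaks are not separate regions.

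Counted by copy, X held 81 copies of the core (4.57 per Mb) and the autosomes 233 (2.82 per Mb). Of the X copies, 24 (29.6%) were inside an IDR peak, 19 of them in X non-promoter peaks, which covered 0.619% of X, and 14 in those over 200. Of the autosomal copies 6 (2.58%) were inside an IDR peak. Regions of the pooled list held 40 of the 81 X copies and 24 of the 233 autosomal copies, so 41 X copies were in none.

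The AP-1 site, TGACTCA or TGAGTCA, was spread over the whole range of signal values. It was found in 15 of the 291 windows (5.15%, 95% interval 2.91 to 8.36%), beside 3.40% of all IDR peaks, 2.47% of X promoter peaks, 3.00% of autosomal peaks outside promoters and 1.41% of lower-ranked X regions outside promoters. It was in 1.37% of windows 500 bp to either side and in 1.09% of X tiles. The interval for the 291 peaks includes the share of all IDR peaks. From the 2738 strongest regions of replicate 1 alone, chosen by the same rule, the share was 2.53% (8 of 316), and from those of replicate 2 alone 6.51% (19 of 292). No window held both the AP-1 site and the full MEX core. With the site in 15 and the core in 11 of 291 windows, hardly any would be shared at those shares, so this says little. Peak 71 held the AP-1 site and the shorter core CGCAGGG. The 15 peaks with the site had a median signal value of 48.7 and the others 49.1. The strongest were peak 15 and peak 50, 1947 bp upstream of F08B12.4 (87.2 pooled, 30 in replicate 1 and 57.1 in replicate 2). Named after their values were seen, further ones were in an intron of nipi-3, a Tribbles-type kinase gene (48.1, 20.9 and 24.4), and upstream of svh-2, a receptor tyrosine kinase gene of axon regeneration (48.7, 18.3 and 28.1). The next 2 stretches show this site in capitals on the plus strand.
Peak 15 (chrX:7181759-7181859, plus strand): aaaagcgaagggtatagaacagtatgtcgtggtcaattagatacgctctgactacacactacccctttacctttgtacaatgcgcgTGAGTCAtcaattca
Peak 50 (chrX:11409629-11409729, plus strand): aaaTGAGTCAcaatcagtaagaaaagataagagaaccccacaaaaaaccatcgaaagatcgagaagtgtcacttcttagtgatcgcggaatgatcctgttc

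The other motifs were absent from the 15 strongest windows and present in some of the rest. The GATA factor site TGATAA was in 64 of 291 windows (22.0%, 95% interval 17.4 to 27.2%), all of them among the 276 peaks up to 200, beside 24.0% of all IDR windows, 29.6% of autosomal windows outside promoters and 9.96% of X tiles. For each of these other motifs, the count of 0 in 15 allows a share of up to 21.8% by the exact interval. The E-box CACGTG was in 21 windows (7.22%) beside 6.98% of all IDR windows and 1.32% of X tiles. The GAGA repeat GAGAGAGA was in 16 (5.50%) beside 6.28% and 0.553%, and the CRE site TGACGTCA in 2 (0.687%) beside 1.13% and 0.359%. The 95% interval of each of these 4 shares includes the share over all IDR peaks. Among the other 28 IDR peaks over 200, the E-box and the GAGA repeat were also in 0 windows. There the CRE site was in 1 window and the GATA factor site in 5 (17.9%). Of the 291 windows, 176 (60.5%) held none of the 6 motifs. That share was not computed for the other sets, so it cannot be called particular to these peaks. The stretches below show, in capitals on the plus strand, the E-box and a GAGA run of peak 23, upstream of the branched-chain aminotransferase gene bcat-1 (139 pooled, 80.8 and 61.0), 4 GATA factor sites of peak 24, near sdz-19 (124, 42.2 and 83.1), and a CRE site that runs into an E-box in peak 121, upstream of the nuclear receptor gene nhr-48 (55.1, 32.1 and 22.5).
Peak 23 (chrX:12872440-12872540, plus strand): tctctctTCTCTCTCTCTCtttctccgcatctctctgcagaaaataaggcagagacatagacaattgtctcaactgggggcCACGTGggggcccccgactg
Peak 24 (chrX:12500973-12501073, plus strand): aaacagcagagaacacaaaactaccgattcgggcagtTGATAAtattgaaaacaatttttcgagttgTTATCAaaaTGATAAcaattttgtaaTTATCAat
Peak 121 (chrX:15704773-15704873, plus strand): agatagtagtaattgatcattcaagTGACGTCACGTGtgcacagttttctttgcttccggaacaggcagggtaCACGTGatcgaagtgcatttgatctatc

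**Figure D3:**
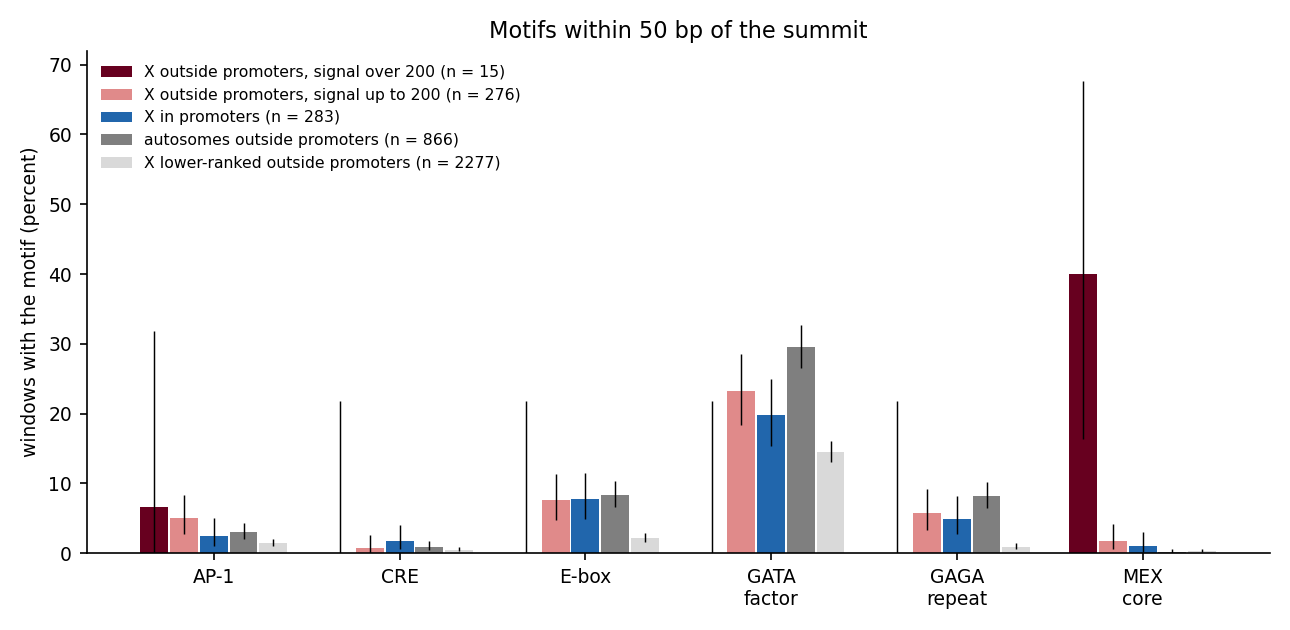
Share of windows (percent, bars) that hold each motif within 50 bp of the summit, with exact 95% intervals as lines, for 5 sets of regions. The MEX core is in 6 of the 15 X peaks outside promoters with a signal value over 200. It is in at most 1.81% of the other 4 sets, which are of lower typical height, and in 2 of the 28 other IDR peaks over 200, not drawn. The GATA factor, E-box and GAGA motifs are at 0 in the first 15, and the E-box and GAGA motifs are also at 0 in those 28.

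By annotation, 157 of the 291 summits (54.0%, 95% interval 48.0 to 59.8%) were intergenic, 78 (26.8%) were in introns of coding genes, 39 (13.4%) in noncoding genes or pseudogenes, 10 (3.44%) in coding exons and 7 (2.41%) in 3′ UTRs. Over all IDR peaks these shares were 61.9, 20.7, 8.62, 2.45 and 2.15% in the same order, and 72.1% of X promoter peaks were intergenic. The promoter rule itself shapes this split. Autosomal peaks outside promoters were divided alike, with 53.9% intergenic and 28.5% intronic. Lower-ranked X regions outside promoters had 12.6% of summits in coding exons and 4.04% in noncoding genes or pseudogenes. The 15 peaks over 200 comprised 12 intergenic, 2 intronic and 1 exonic summit. The strongest peak in a noncoding gene was peak 25, in the ncRNA gene F09E10.14 (122 pooled, 49.9 and 61.9), and the strongest in a 3′ UTR was peak 56, in that of the KCNQ-type potassium channel gene kqt-2 where it overlaps endu-2 (83.6, 35.8 and 48.7). Distance to the nearest coding 5′ end ran from 530 to 15192 bp, with a median of 2382 bp. Of the 291 summits 139 were upstream of that end and 152 downstream of it. Only 39 were more than 5 kb away and 4 more than 10 kb.

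**Figure D4:**
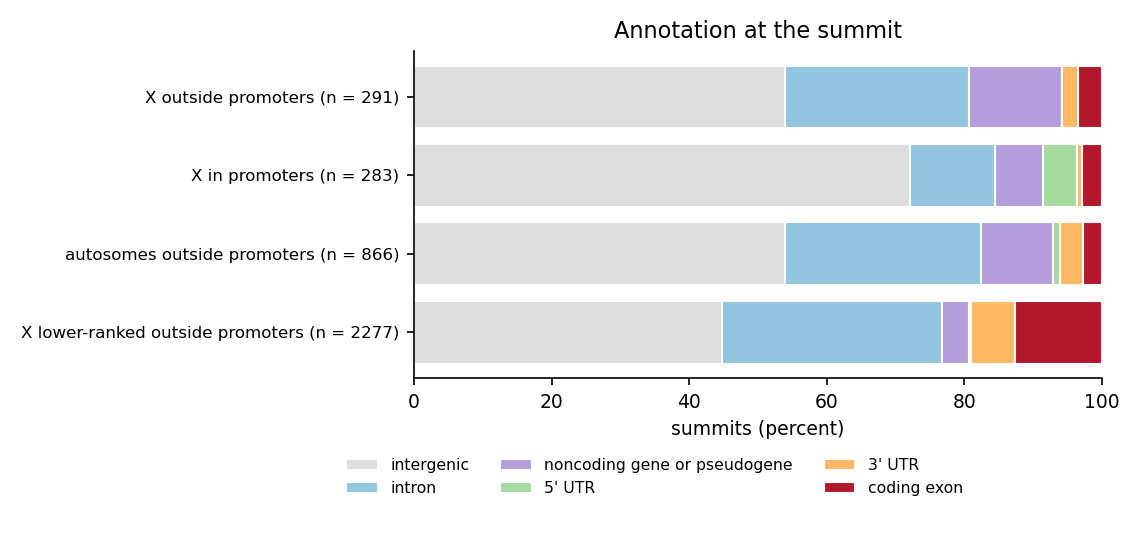
Annotation at the summit, as a percent of the summits in each of 4 sets. X peaks outside promoters are 54.0% intergenic and 3.44% in coding exons, where lower-ranked X regions outside promoters have 12.6%.

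The 8 summits within 100 bp outside an edge had a median signal value of 35.2 (31.5 to 63.9), and the 12 X promoter summits within 100 bp inside one had 56.9 (33.5 to 216).

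Transfer RNA genes, which RNA polymerase III transcribes, lay next to many of these summits. Of the 291, 40 (13.7%, 95% interval 10 to 18.2%) were within 200 bp of a tRNA gene, beside 3.54% of all IDR summits, 5.30% of X promoter summits, 3.46% of autosomal summits outside promoters and 3.65% of lower-ranked X summits outside promoters. The X chromosome carries 276 of the 612 annotated tRNA genes, and 47 of these 276 (17.0%) had such a summit within 200 bp. These 40 peaks had signal values of 31.5 to 111 (median 49.7), so that none was among the 15 strongest, and none held the MEX core. Over all 291 peaks only 5.15% were among those 15 and 3.78% held the core, so few would fall among 40 peaks at those shares. These absences are therefore not read as a trait of peaks near tRNA genes. The strongest, peak 28, lay near C53C7.3 (111 pooled, 54.7 and 54.4).

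The 15 strong peaks were spread along X, and 8 of them had no other X non-promoter peak within 10 kb, as was so for 135 of all 291. Their median distance to the nearest X non-promoter peak was 14879 bp, beside 6343 bp for the rest of the 291. To the nearest IDR peak of any kind the median for the 15 was 2853 bp. Neighbouring peaks over 200 were a median of 1048686 bp apart, with the nearest pair 247660 bp and the most distant 2355749 bp apart, distances that their small number largely sets. With X cut into 10 equal bins, each bin held 0 to 3 of them. Over all 291 peaks the median gap was 26155 bp, and 98 of 290 gaps (33.8%) were 10 kb or less, against 17.7% for X promoter peaks and 29.6% for autosomal peaks outside promoters. Median gaps in those sets were 35215 and 45187 bp. The sets thus differ in density, for which the shares of short gaps make no allowance. The bins held 16 to 40 of the 291 peaks, with the fewest in bin 6 and the most in bin 4, counted from the left end. Runs with gaps of 10 kb or less took in 156 peaks in 58 runs, and 135 peaks were alone.

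**Figure D5:**
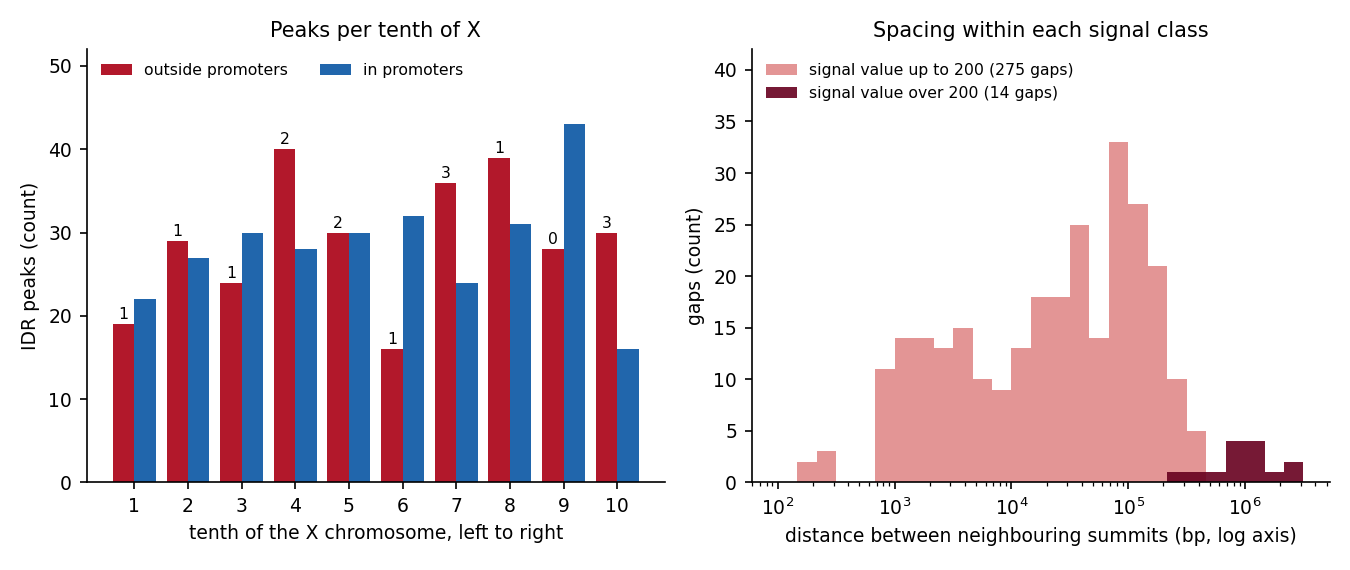
Left, IDR peaks in each of 10 equal bins of X outside (red) and in (blue) promoters, with the number over 200 outside promoters printed above each red bar. Right, distance between neighbouring summits (log axis), counted separately within the peaks up to 200 and within those over 200, whose gaps run from 247660 to 2355749 bp.

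The largest run held 11 peaks over 13691 bp at mdl-1, which encodes a MAD-type bHLH transcription factor, and abts-4, an anion transporter gene. Its signal values ran from 35.9 to 84.7, and 5 of its summits were in abts-4. The highest of the run was peak 54, in an intron of abts-4 (84.7 pooled, 37.2 and 47.1), which also held an AP-1 site. The regions of peaks 107, 172 and 223 in this run overlap in a chain, and peaks 172 and 223 were matched to the same region of replicate 2 (rank 977). The second run held 7 peaks over 18505 bp at lin-14, the heterochronic gene whose fall sets the early larval stages, with 6 of the summits inside the gene. Its values were 40.2 to 61.1, the highest of them in an intron (61.1 pooled, 30.9 and 27.6). Both runs were built of moderate peaks, all under 100 in the pooled call.

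Of 24 X-linked genes in 5 lists (dosage compensation and its X-signal elements, heterochronic timing, GATA factors, vitellogenins and bZIP factors), 13 had an X non-promoter summit within 10 kb of the gene, where 25.1% of all 2731 X-linked coding genes did. The 24 include the miRNA genes let-7 and mir-84, which the share over coding genes leaves out, and neighbouring genes can share a summit. Genes differ in length and spacing, and xol-1 entered with its peak already known, so the counts are a description. A summit within 10 kb of a listed gene can lie in or nearer to another gene. Where a gene had several summits, the values given are those of the strongest. Among the genes of the first list, 4 of 6 had one. They were xol-1, sdc-2 (108 pooled, 43.2 and 63.3, 7110 bp from the gene), the zinc finger gene sdc-1 (33.9, 12.7 and 19.4) and the ONECUT homeobox gene ceh-39 (31.9, 10.6 and 21.8), an X-signal element, while fox-1 and sex-1 had none. The last 2 values are close to the lowest in the IDR list, 31.4. The peak near sdc-2 is peak 32, in a coding exon of hpo-34. Those near sdc-1 and ceh-39 are peaks 265 and 287, with nearest coding 5′ ends of ifa-3 and T26C11.8. Both are within 200 bp of a tRNA gene. Of 6 X-linked heterochronic genes, 4 had one, namely lin-14, the nuclear receptor gene daf-12 with a summit in an intron (66.9, 46.4 and 27.7), the let-7 family miRNA gene mir-84 (51.9, 24.5 and 27.9) and the hunchback-type gene hbl-1 (37.2, 20.8 and 19.5). The genes let-7 and alg-1 had none outside promoters, but had 3 and 1 X promoter peaks within 10 kb. The intestinal GATA factor genes elt-2 and elt-4 shared the same peak (60.8, 18.9 and 40.9), and elt-3 and med-1 had none. Of 5 vitellogenin genes, 2 had one, vit-3 (37.9, 15 and 24.3) and vit-4 (39.2, 12.8 and 26), at 9682 and 7424 bp. Both of these summits are in the gene rgs-7. Of 3 bZIP genes only atf-4 had one (76.0, 33.5 and 41.7), while cebp-1 and atf-6 each had 2 X promoter peaks within 10 kb and none outside.

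The authors' pooled list shows how selective the IDR list was outside X promoters. It held 2625 X regions outside promoters, of which the 291 were 11.1% (95% interval 9.91 to 12.3%). Over the whole pooled list of 20820 regions 13.2% were in the IDR list, with 9.51% for autosomal regions outside promoters and 19.1% for X regions in promoters. X regions outside promoters thus entered the IDR list at a rate between that of autosomal regions outside promoters and that of the whole list.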

How the data were processed

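ChIP-seq of eGFP-tagged JUN-1 in L3 larvae was deposited as narrowPeak lists for 2 biological replicates, both replicates pooled, and an IDR list. Per the deposited text notes, the lists derive from alignments and a further file of unstated kind. For peak caller, aligner and depth, nothing is given in the sources used here. Each region has the authors' signal value, a score of unstated scale, and the authors' deposited −log10 of a q-value, at its maximum of 3.73 in 287 of the 291 peaks and not used for ranking.

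Lists on ce11 were joined to Ensembl release 115 genes (WBcel235) and the RefSeq genome. The lists hold 2738 (IDR), 20820 (pooled), 27417 (replicate 1) and 28475 (replicate 2) regions. The summit is column 2 plus column 10. Its class was the first match among coding exon, 5′ UTR, 3′ UTR, noncoding exon, intron and intergenic. Replicate summits were matched within 200 bp. Motifs, taken from background knowledge, were searched on both strands.

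Named are the genes at the 12 strongest peaks, the strongest of each class and motif, the 2 largest runs and listed genes; exceptions are stated. Other replicate, window and distance settings were tried. Those on 1 mismatch, whole regions and tRNA genes were added after seeing the data, and the members, motifs and lists were chosen with earlier results of these data known. The rule, matching and motif search were tested on simulated data. Of the list genes, sex-2 and atf-5 matched no annotated name. Python 3.11.15, numpy 2.4.6, pandas 2.3.3 and scipy 1.17.1 were used.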

Additional observations from a re-analysis of the deposited data

How the results depend on the processing

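Of 45 alternative values, 38 stayed within 1.5 times the reported count or within the 95% interval of the reported share. The number of X non-promoter peaks was 231 with a promoter of 2000 bp upstream, 354 with one of 500 bp upstream to 250 bp downstream, and 292 to 316 with 1 replicate left out, and it was 152 in the stronger 1 in 2 of the IDR peaks, which are fewer by construction. In that stronger part 20.5% of neighbours were within 10 kb, and with runs defined at 20 kb the share of all 290 gaps was 43.4%. The AP-1 share was 2.75% with 25 bp on each side, a narrower window, and 2.53 to 6.51% with 1 replicate left out; the cause of the latter spread was not tested. The MEX core share was 3.77 to 4.11% with 1 replicate left out and 9.28% with 1 mismatch allowed. With a matching distance of 100 bp, 91.8% of peaks were matched in both replicate lists. Of the 100 strongest regions, 21 to 26 were X non-promoter peaks under the 4 settings that could change this number; the stronger 1 in 2 of the IDR peaks holds all 100 by construction, so its value says nothing on stability. No paired analysis was possible because there is 1 group. The read depth is unknown, so nothing here says which weaker regions a deeper experiment would list.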
